A study of Oncorhynchus mykiss with 12 samples.

Results

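The genes described here are regulators of the unfolded protein response and of the integrated stress response in the liver of rainbow trout (Oncorhynchus mykiss). Rows of the RNA-seq table were taken by gene symbol, with letter case ignored and a copy suffix allowed, or by a description naming X-box-binding protein 1 or the factors ATF-3, ATF-4 or ATF-6. This gave 22 of 42128 rows, for 8 of the 10 gene names sought: 2 rows of xbp1, 2 of DDIT3, 4 of atf4, 2 of atf3, 3 of atf6, 2 of Atf6b, 6 of ern1 and 1 of eif2ak3. No row carried trib3 or ppp1r15a, which were not analysed here. The hypoxia group was liver of trout kept for 1 month at 4.5 mg/L dissolved oxygen, and the control group was liver of control trout. Both are labelled wild-type, and each had 3 RNA-seq libraries. The labels give neither strain, age and sex nor whether each library was a separate fish, so p-values measure the spread between these libraries, which may be technical.

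In animal cells 3 sensors in the membrane of the endoplasmic reticulum (ER) respond to unfolded protein in its lumen. IRE1, encoded by ern1, is a kinase and RNase that splices the xbp1 transcript, so that it encodes an active transcription factor. PERK, encoded by eif2ak3, phosphorylates the translation factor eIF2, which lowers protein synthesis in general while translation of ATF4 increases. ATF4 in turn induces DDIT3 (CHOP), atf3 and genes of amino acid supply. ATF6 and its relative ATF6 beta are cut in the Golgi apparatus, and each releases a transcription factor. The factor released from ATF6 induces ER chaperones. Other eIF2 kinases feed into the same ATF4 branch, which is why it is called integrated. Liver secretes much plasma protein and expresses these genes at rest. Splicing of xbp1, phosphorylation of eIF2 and cutting of ATF6 are not measured by a count of transcripts per gene.

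Counts per library summed to between 19060468 and 23152833. Hepatocyte markers were abundant, with a summed level of 73845 to 82691 FPKM in hypoxia and 72134 to 73522 FPKM in control libraries (FPKM, fragments scaled to the length of the gene model and the depth of the library, is the authors' measure of level). Every hypoxia sum lay above every control sum, and of 30 tested loci 2 were higher and 1 lower. On the first principal component, which held 45.6% of the variance, control replicate 1 lay at -7.34, against -32.8 and -31.5 for the other controls and 18.4 to 27.1 for the hypoxia libraries. Red blood cell markers summed to 476 to 615 FPKM in hypoxia and 904 to 1237 FPKM in control libraries. Of 25 tested, 13 were lower and 0 higher (of all genes tested, 7.22% were called in either direction). All 13 were hemoglobin loci, and no other red blood cell marker was called. The row with the symbol GATA1, which is described as GATA-binding factor 2-like, was listed at 0 in all 6 libraries. Stellate cell and matrix markers summed to 188 to 273 FPKM in hypoxia and 278 to 363 FPKM in controls (4 of 19 lower, 0 higher). All 4 were col1a1 or col1a2 loci. Endothelial markers summed to 21.2 to 22.1 FPKM in hypoxia and 25.3 to 27.4 FPKM in controls (1 of 10 lower, 0 higher). Leukocyte markers summed to 206 to 229 FPKM in hypoxia and 198 to 262 FPKM in control libraries (1 of 18 lower, 0 higher), and bile duct markers to 272 to 314 FPKM in hypoxia and 309 to 335 FPKM in controls (0 of 15 called, cftr at or near 0). The 1 call in each of the endothelial and leukocyte lists is too few to set against the 3.39% lower of all genes. At an unadjusted p under 0.05 edgeR had 6 of the 10 endothelial loci lower and 0 higher, at a median log2 fold change of -0.39. Of the 18 leukocyte loci it had 1 lower and 1 higher, at a median of -0.08. Over all 19365 genes 4581 were under 0.05 in either direction. The part of these cell types in the results below was not tested, and in whole liver fewer cells of a type and less RNA per cell cannot be told apart.

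Transcripts of at least 1 locus in each sensor arm were lower after 1 month of hypoxia, and no member locus was called higher. Those that fell were the annotated xbp1 locus, eif2ak3 (PERK), DDIT3 (CHOP) and 1 of the 2 Atf6b loci, to between 55.6% and 63.5% of the control mean. The 4 atf4 loci, the 3 atf6 loci and a far more abundant second xbp1 locus did not pass the test. Nor did any tested locus of ern1 (IRE1) or atf3, or the more abundant Atf6b locus. With the loci of each gene summed, DDIT3 was still lower (edgeR adjusted p = 0.0368). Its second row held on average just 3.18% of the summed level in hypoxia and 3.85% in controls. The gene eif2ak3 has 1 locus, so summing added nothing to it (edgeR adjusted p = 0.0270). Summed xbp1 and summed Atf6b did not pass (edgeR adjusted p = 0.790 and 0.0771). Of the 22 loci, 17 had a mean of at least 0.5 FPKM over all 6 libraries and were tested with edgeR's quasi-likelihood test, with p-values adjusted over 19365 genes by Benjamini-Hochberg. Of these 17, 4 were lower and 0 higher at an adjusted p under 0.05, while 3.39% of all genes tested were lower and 3.83% higher. The members were chosen with earlier results of these data known, so this comparison is descriptive. DESeq2 called the same number in each direction, and 840 of all genes lower. Limma called 0 in either, while on log2(FPKM + 0.5) it called 317 of all genes lower. At an unadjusted p under 0.05 edgeR had 7 of the 17 loci lower and 1 higher, beside 4581 of all 19365 genes in either direction. With limma on log2(FPKM + 0.5) the 4 loci had log2 fold changes of -0.75 to -0.61 and adjusted p of 0.0672 to 0.0947. Without hypoxia replicates 1, 2 and 3, edgeR called 0, 0 and 0 of the loci lower, against 127, 167 and 203 of all genes. Without control replicates 1, 2 and 3 it called 4, 1 and 0 of the loci lower, against 1056, 205 and 230 of all genes. The median log2 fold change (hypoxia over control) was -0.27 over the 17 loci and -0.0046 over all genes tested, and 13 of the 17 had a negative value. All 3 hypoxia libraries lay below all 3 controls at 7 of the 17 loci and above them at 1, which over all genes happened at 13.1% and 13.9%.

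**Figure D1:**
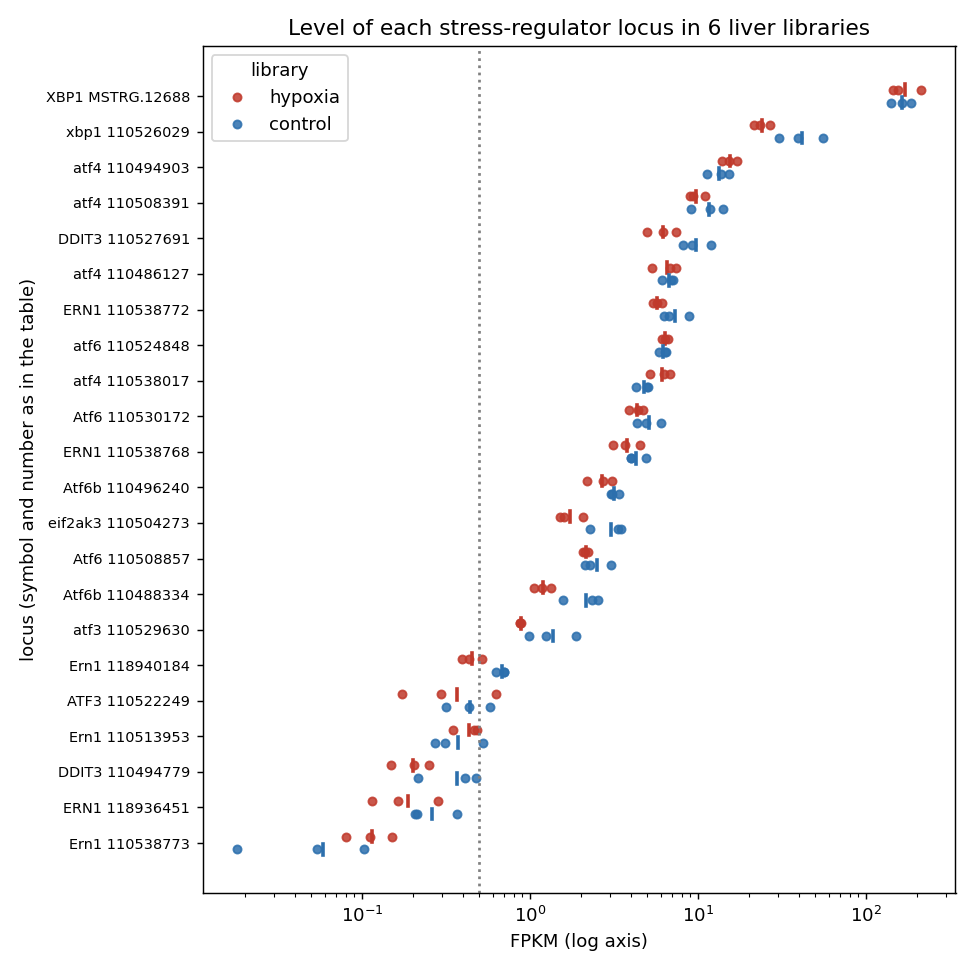
FPKM (log axis) of all 22 loci in each library, ordered by mean level. Points are libraries (3 hypoxia, red, above 3 control, blue), short bars are group means, and the dotted line marks 0.5 FPKM; the 2 xbp1 loci stand above the rest and the 5 untested loci lie below 0.5 FPKM.

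Both groups held the same 2 loci at the top of the order of levels. The assembled XBP1 locus averaged 171 ± 36.9 FPKM in hypoxia and 164 ± 22.8 FPKM in control libraries (SD, n = 3 each), and the annotated xbp1 locus came next. In hypoxia libraries the next were atf4 110494903 at 15.4 ± 1.66 FPKM and atf4 110508391 at 9.77 ± 1.08 FPKM, each above its next neighbour in every library. In control libraries each locus from rank 3 to rank 10 overlapped the next in range. These ranges were compared across libraries, so the overlap does not show whether neighbours differ within a library. PERK ranked 14 of the 22 loci in hypoxia, at 1.72 ± 0.301 FPKM, and 13 in controls, at 3.05 ± 0.658 FPKM.

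The IRE1 and XBP1 arm gave different values at different copies. The annotated xbp1 locus (NCBI gene 110526029) had 23.3, 21.7 and 27.0 FPKM in hypoxia replicates 1 to 3, against 39.2, 30.5 and 55.3 FPKM in control replicates 1 to 3. Every hypoxia library lay below every control, and control replicate 3 was the highest of all. The means were 24.0 ± 2.71 FPKM in hypoxia and 41.7 ± 12.6 FPKM in controls (SD, n = 3 each), from 875 to 1034 counts per hypoxia library and 1354 to 2588 per control library. This locus fell by 0.83 on the log2 scale (SE 0.20, 95% interval -1.27 to -0.38, edgeR adjusted p = 0.0353). The call did not hold when hypoxia replicate 1, 2 or 3 was dropped (edgeR adjusted p of 0.131, 0.117 and 0.0823) or when control replicate 3 was (0.0871, at a log2 fold change of -0.53, against -0.83 with all libraries).

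The second XBP1 row is an assembled locus without an NCBI gene number, MSTRG.12688, which the table names after the XBP1 protein of Atlantic salmon (Salmo salar). It had 156, 145 and 213 FPKM in hypoxia replicates 1 to 3 and 164, 141 and 186 FPKM in control replicates 1 to 3. The groups overlapped, with hypoxia replicate 3 above every control and control replicate 2 below every hypoxia library. Its log2 fold change was 0.04 (95% interval -0.33 to 0.41, edgeR adjusted p = 0.921). Counts, FPKM and library totals together imply a gene model of about 2111 bases for it and 2011 bases for the annotated locus.

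The annotated locus made up 12.4 ± 1.04% of the FPKM summed over both loci in hypoxia and 20.02 ± 2.60% in control libraries (SD, n = 3 each). The log2 ratio of the annotated to the assembled locus was -2.74, -2.74 and -2.98 in hypoxia replicates 1 to 3, against -2.06, -2.20 and -1.75 in control replicates 1 to 3. This ratio does not depend on library scaling, and its groups did not overlap. The difference between the groups was -0.81, with an exact two-sided permutation p of 0.1 (0.1 also when adjusted over the 2 locus ratios compared), the smallest that 3 against 3 libraries allow. This pair was chosen because the annotated locus was called lower and the assembled one was not. The choice rests on the same values, so the ratio and its p are descriptive and do not test whether the copies differ. With the counts of both loci summed, the log2 fold change was -0.10 (95% interval -0.48 to 0.29, edgeR adjusted p = 0.790). How far reads are shared between these copies was not tested.

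**Figure D2:**
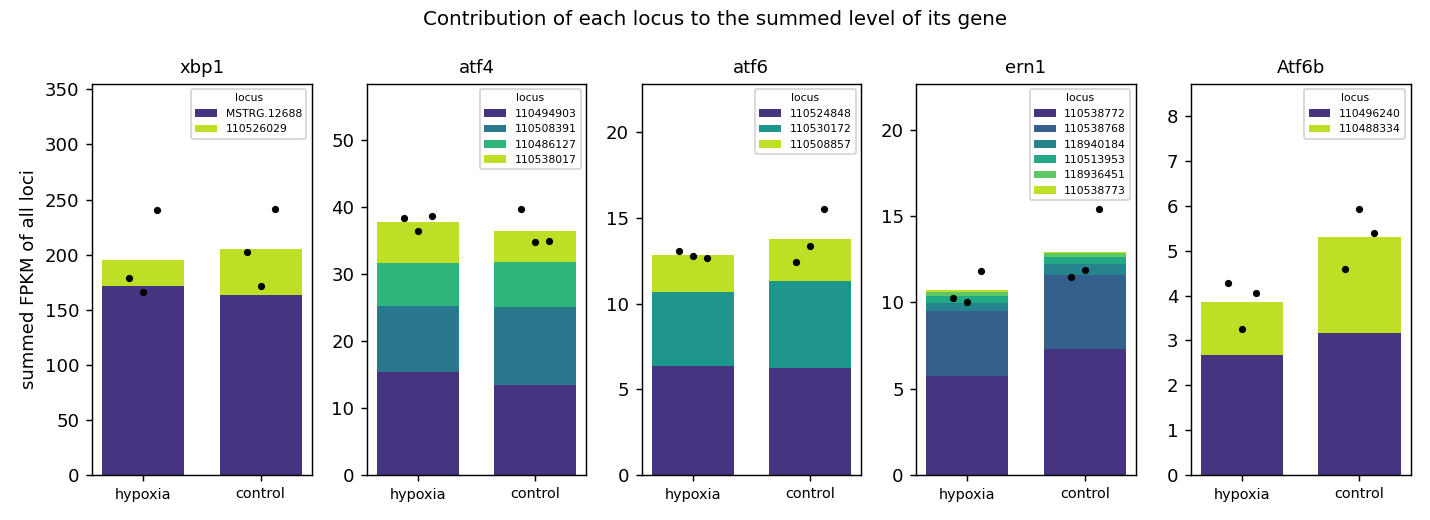
Mean FPKM of each locus, stacked into the sum for its gene, in hypoxia (left bar) and control (right bar) livers; points are the summed FPKM of the 3 libraries of each group and every axis starts at 0. The assembled XBP1 locus makes up most of the xbp1 sum in both groups, and the 4 atf4 loci sum to about the same level in both.

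Of 6 loci named for IRE1 (ern1), 3 were tested and none passed. The most abundant, 110538772, had 5.42, 5.68 and 6.11 FPKM in hypoxia replicates 1 to 3, against 6.28, 6.68 and 8.87 FPKM in control replicates 1 to 3. The groups did not overlap, but the highest hypoxia library was close to the lowest control. Its log2 fold change was -0.37 (SE 0.17, edgeR adjusted p = 0.201). At 110538768, with 3.78 ± 0.725 FPKM in hypoxia and 4.28 ± 0.540 FPKM in controls, the value was -0.21 (edgeR adjusted p = 0.470). The low locus 118940184, described as IRE1-like, had 0.436, 0.520 and 0.395 FPKM in hypoxia replicates 1 to 3 and 0.629, 0.700 and 0.705 FPKM in control replicates 1 to 3, with a log2 fold change of -0.61 (SE 0.26, edgeR adjusted p = 0.180). Locus 110538772 carried 53.7 ± 2.62% of the summed IRE1 level in hypoxia and 56.1 ± 1.44% in controls, and 110538768 carried 35.1 ± 3.82% in hypoxia and 33.3 ± 1.37% in controls (SD, n = 3 each). In the gene table of assembly USDA_OmykA_1.1 each of these 2 abundant loci has another IRE1 locus beside it with 1 protein-coding gene between, and those neighbours (110538773 and 118936451) were both under 0.5 FPKM.

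In the PERK branch the sensor and CHOP fell and ATF4 did not pass. The PERK gene eif2ak3 (110504273) had 1.60, 1.499 and 2.06 FPKM in hypoxia replicates 1 to 3, against 2.29, 3.49 and 3.36 FPKM in control replicates 1 to 3. The groups did not overlap, and control replicate 1 lay nearest to the hypoxia libraries. The counts behind these levels were 202 to 264 in hypoxia and 298 to 525 in control libraries. PERK fell by 0.86 on the log2 scale (SE 0.20, 95% interval -1.29 to -0.43, edgeR adjusted p = 0.0269). The call held without control replicate 1 (edgeR adjusted p = 0.00286, log2 fold change -1.05). Dropping any other library ended it: edgeR's adjusted p was 0.113, 0.101 and 0.0524 with hypoxia replicate 1, 2 or 3 left out, and 0.0942 and 0.0870 with control replicate 2 or 3 left out.

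The DDIT3 locus 110527691 encodes CHOP, a bZIP factor known for promoting cell death under lasting ER stress. It had 6.20, 4.995 and 7.395 FPKM in hypoxia replicates 1 to 3, against 9.22, 11.9 and 8.10 FPKM in control replicates 1 to 3. The groups did not overlap, although hypoxia replicate 3 and control replicate 3 stood close to each other. CHOP fell by 0.67 on the log2 scale (SE 0.18, 95% interval -1.06 to -0.29, edgeR adjusted p = 0.0435), from 332 to 469 counts per hypoxia library and 588 to 864 per control library. Its call held without control replicate 1 (edgeR adjusted p = 0.0302) and was lost without any other library, at 0.149, 0.157 and 0.0569 without hypoxia replicates 1, 2 and 3, and 0.149 and 0.0577 without control replicates 2 and 3. With the replicate number as a block it was not past the threshold (edgeR adjusted p = 0.0748). A second row with the symbol DDIT3 (110494779) is described as SKI family transcriptional corepressor 2, so symbol and description disagree. It averaged 0.201 ± 0.0516 FPKM in hypoxia and 0.369 ± 0.136 FPKM in controls (SD, n = 3 each) and was not tested.

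**Figure D3:**
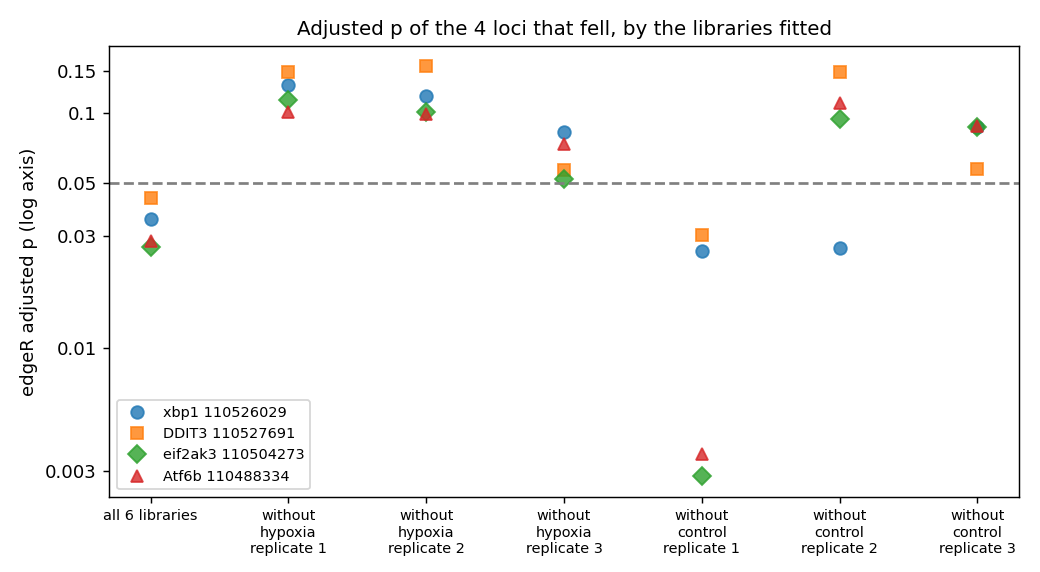
Adjusted p (log axis) of the 4 loci that fell, with all 6 libraries and with each library left out in turn; the dashed line is 0.05. All 4 pass with all libraries and without control replicate 1, xbp1 also passes without control replicate 2, and no locus passes in the remaining fits.

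Transcripts of ATF4, the transcription factor at the centre of the integrated stress response, were spread over 4 loci, none past the threshold. The most abundant, 110494903, had 15.3, 13.9 and 17.2 FPKM in hypoxia replicates 1 to 3 and 13.6, 15.3 and 11.3 FPKM in control replicates 1 to 3, with a log2 fold change of 0.18 (95% interval -0.13 to 0.49). Its groups overlapped. At 110538017 the 3 hypoxia libraries had 6.81, 6.27 and 5.17 FPKM and the 3 controls 5.03, 4.29 and 4.94 FPKM. This was the 1 tested locus at which hypoxia lay wholly above control, and its log2 fold change of 0.34 (SE 0.15) had an edgeR adjusted p of 0.208. Locus 110508391 averaged 9.77 ± 1.08 FPKM in hypoxia and 11.6 ± 2.52 FPKM in controls (log2 fold change -0.27, edgeR adjusted p = 0.339). Locus 110486127 averaged 6.51 ± 1.08 FPKM in hypoxia and 6.70 ± 0.507 FPKM in controls (SD, n = 3 each), with no call (log2 fold change -0.08, edgeR adjusted p = 0.805). Summed over the 4 loci, ATF4 had 38.3, 36.4 and 38.6 FPKM in hypoxia replicates 1 to 3 and 39.8, 34.8 and 34.9 FPKM in control replicates 1 to 3. The log2 fold change of the summed counts was 0.02 with a 95% interval of -0.24 to 0.27, the narrowest of the 8 summed genes.

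The stress factor gene atf3, a target of ATF4 in mammals, was low in this liver. Locus 110529630 had 0.872, 0.890 and 0.876 FPKM in hypoxia replicates 1 to 3, against 1.88, 1.25 and 0.984 FPKM in control replicates 1 to 3. The hypoxia libraries were nearly equal and all lay below the spread-out controls. The log2 fold change was -0.65 (SE 0.26) with an edgeR adjusted p of 0.156, from 43 to 46 counts per hypoxia library. The second locus, 110522249, averaged 0.365 ± 0.235 FPKM in hypoxia and 0.441 ± 0.132 FPKM in controls (SD, n = 3 each) and was not tested.

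In the ATF6 arm the 2 Atf6b loci, for ATF6 beta, gave different calls. Locus 110488334 had 1.19, 1.06 and 1.34 FPKM in hypoxia replicates 1 to 3, against 1.57, 2.55 and 2.33 FPKM in control replicates 1 to 3. The groups did not overlap, and control replicate 1 was again the lowest control. It fell by 0.86 on the log2 scale (SE 0.20, 95% interval -1.29 to -0.42, edgeR adjusted p = 0.0286), from 95 to 111 counts per hypoxia library and 138 to 248 per control library. The call held without control replicate 1 (edgeR adjusted p = 0.00354, log2 fold change -1.05) and was lost without any other library, at 0.101, 0.0987 and 0.0737 without hypoxia replicates 1, 2 and 3, and 0.110 and 0.0875 without control replicates 2 and 3. The more abundant locus 110496240 had 3.09, 2.19 and 2.73 FPKM in hypoxia replicates 1 to 3 and 3.03, 3.39 and 3.06 FPKM in control replicates 1 to 3. Its groups overlapped through hypoxia replicate 1, and its log2 fold change was -0.27 (95% interval -0.60 to 0.05, edgeR adjusted p = 0.290). The log2 ratio of 110488334 to 110496240 was -1.38, -1.04 and -1.03 in hypoxia replicates 1 to 3, against -0.95, -0.42 and -0.39 in control replicates 1 to 3. It differed by -0.57 between hypoxia and control, with an exact two-sided permutation p of 0.1, the smallest possible. This pair too was chosen by its calls in the same libraries, so the ratio and its p are descriptive. Summed, the 2 loci had a log2 fold change of -0.48 and were not past the threshold (edgeR adjusted p = 0.0771).

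ATF6 alpha, the ER sensor that is released as a transcription factor, had 3 loci and no call. The most abundant, atf6 110524848, had 6.14, 6.34 and 6.67 FPKM in hypoxia replicates 1 to 3 and 5.83, 6.33 and 6.48 FPKM in control replicates 1 to 3. Its log2 fold change of 0.01 (SE 0.14) had the smallest size of the 17 loci, and its sign changed when hypoxia replicate 2, hypoxia replicate 3 or control replicate 1 was left out. The Atf6 loci 110530172 and 110508857 averaged 4.31 ± 0.419 and 2.14 ± 0.0670 FPKM in hypoxia and 5.08 ± 0.852 and 2.49 ± 0.487 FPKM in controls (SD, n = 3 each). Their log2 fold changes were -0.27 and -0.25 (edgeR adjusted p = 0.381 and 0.442). Control replicate 3 was the highest library at both loci, and the groups overlapped.

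**Figure D4:**
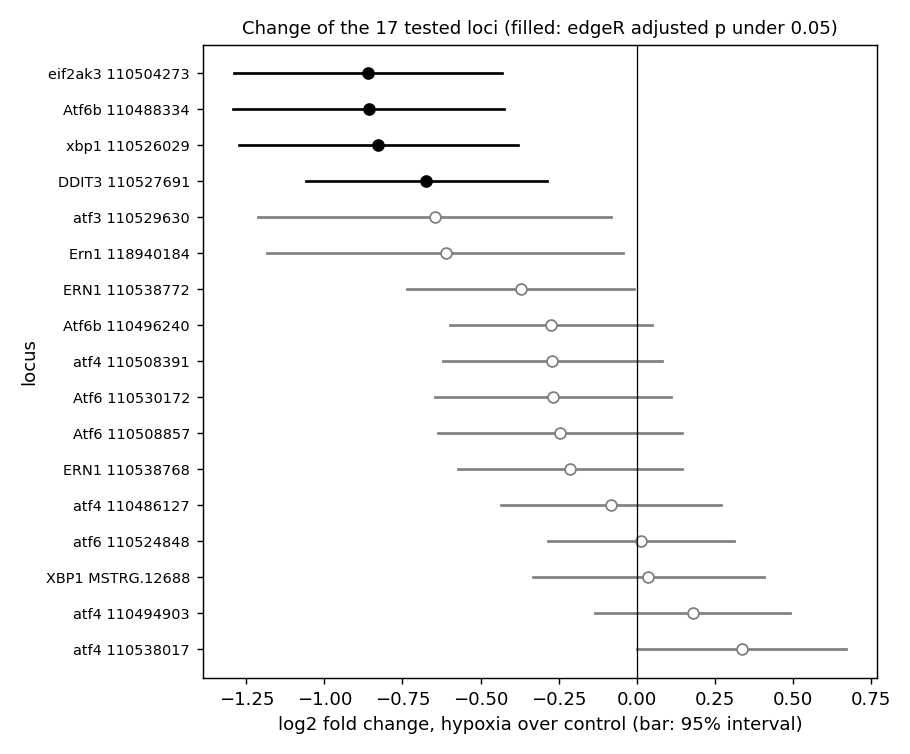
Log2 fold change (hypoxia over control) of the 17 tested loci with 95% intervals from edgeR; filled points passed an adjusted p of 0.05. The 4 filled loci lie between -0.86 and -0.67, and the 4 loci above 0 are 2 of atf4, 1 of atf6 and the assembled XBP1.

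The 5 untested loci averaged 0.0862 to 0.403 FPKM over all 6 libraries, with 1 to 58 counts in a library. They were 3 IRE1 loci, the second atf3 locus and the DDIT3 row described as SKI family transcriptional corepressor 2, and hypoxia and control overlapped at each. In the authors' deposited table the 4 loci that fell also had an adjusted p under 0.05 and no other member did. That table gave log2 fold changes of -0.80 for xbp1 110526029, -0.83 for eif2ak3, -0.65 for DDIT3 110527691 and -0.85 for Atf6b 110488334.

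Among genes that ATF6 and XBP1 are known to induce, those that passed the test rose. Of 104 tested loci in a list of ER chaperone, translocation and ER-associated degradation genes, 14 rose, 0 fell and 90 did not pass with edgeR, at a median log2 fold change of 0.22. That is 13.5% higher and 0% lower, beside 3.83% and 3.39% of all genes tested. The list was chosen with earlier results of these data known, so these shares are descriptive. At an unadjusted p under 0.05 edgeR had 37 higher and 7 lower, beside 4581 of all 19365 genes in either direction. DESeq2 and limma also called 0 lower. Calreticulin, a calcium-binding chaperone of glycoproteins, rose by 0.84 (SE 0.13) at CALR 110524201, with 45.1, 39.9 and 37.9 FPKM in hypoxia replicates 1 to 3 and 26.0, 19.95 and 21.9 FPKM in control replicates 1 to 3 (edgeR adjusted p = 0.00879). It rose by 1.39 (SE 0.21) at the lower locus calr 110521567. The coat protein gene sec31a of vesicles leaving the ER rose by 0.84 and derl2, a factor of ER-associated degradation, by 0.85 (edgeR adjusted p = 0.00882 and 0.00952). All 4 passed in each of the 6 fits without 1 library.

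Further members of this list are named here after their values were seen, and BiP, edem1, DNAJB9 and herpud1 did not pass. The ER chaperone BiP, hspa5 100135840, had 45.8, 49.7 and 66.8 FPKM in hypoxia replicates 1 to 3 and 40.02, 36.3 and 60.4 FPKM in control replicates 1 to 3. Replicate 3 was the highest in both groups, and the log2 fold change was 0.22 (SE 0.21, edgeR adjusted p = 0.589). The XBP1 targets edem1 and DNAJB9 110500224 were at -0.09 and -0.66, and the degradation factor herpud1 110494752 at -0.22 (edgeR adjusted p = 0.727, 0.236 and 0.326). Without control replicate 1, DNAJB9 110500224 passed at -0.95 (edgeR adjusted p = 0.0434). Other copies passed in no fit without 1 library. In those fits DNAJB9 110490251 ranged over -0.64 to -0.01 and Dnajb9 110500011 over -0.07 to 0.21. The second BiP locus, hspa5 110523600, ranged over -0.16 to 0.53 and Herpud1 110520206 over -0.19 to -0.01. The ER chaperone gene hyou1 rose at both of its loci, by 0.70 at 110537640 and by 0.62 at 110533505 (edgeR adjusted p = 0.0122 and 0.0370), and the call at 110533505 was lost without any 1 library other than control replicate 3. Without hypoxia replicates 1, 2 and 3 this locus had an edgeR adjusted p of 0.114, 0.0975 and 0.0977, and without control replicates 1 and 2 one of 0.0558 and 0.121. The list had 5, 6 and 9 loci higher without hypoxia replicates 1, 2 and 3, when 234, 305 and 229 of all genes were. Without control replicates 1, 2 and 3 it had 14, 8 and 8 higher, when 1130, 268 and 266 of all genes were. Loci lower were 4 without control replicate 1, when 1056 of all genes were, and 0 in the other 5 fits, when 127 to 230 of all genes were.

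Of 63 tested loci of ATF4 and CHOP target genes 17 rose, 8 fell and 38 did not pass, with a median log2 fold change of 0.06. That is 27.0% higher and 12.7% lower, beside 3.83% and 3.39% of all genes tested. This list too was chosen with earlier results of these data known, so the shares are descriptive. Asparagine synthetase, asns 110488144, had 3.48, 3.01 and 4.30 FPKM in hypoxia replicates 1 to 3, against 1.48, 0.820 and 1.404 FPKM in control replicates 1 to 3. It rose by 1.52 (SE 0.21, edgeR adjusted p = 0.00793), and every hypoxia library was above every control. The seryl-tRNA synthetase sars1 rose by 1.52 (SE 0.20), the proline synthesis enzyme Aldh18a1 110499060 by 1.446 (SE 0.22) and the serine synthesis enzyme PHGDH by 2.59 (edgeR adjusted p = 0.0064, 0.00837 and 0.00247). These 4 passed in all 6 fits without 1 library. The glutathione-degrading enzyme chac1 110522620, known as a CHOP and ATF4 target in mammals and named here after its value was seen, was at 0.65 (SE 0.18, edgeR adjusted p = 0.0553). Without control replicate 1 it passed at 0.80 (edgeR adjusted p = 0.0224). The loci of this list that fell are named after their values were seen. The glycine transporter slc6a9 110530321 had 2.35, 1.78 and 1.93 FPKM in hypoxia replicates 1 to 3, against 4.71, 3.18 and 3.49 FPKM in control replicates 1 to 3. All hypoxia libraries lay below all controls, and it fell by 0.73 (SE 0.14, edgeR adjusted p = 0.0137). Its adjusted p was 0.0676 and 0.0544 without hypoxia replicates 2 and 3 and 0.0509 without control replicate 3. The autophagy gene map1lc3b 118941186 fell by 0.75 (edgeR adjusted p = 0.0188), and its call held without control replicate 1 alone (0.0546 to 0.0862 in the other 5 fits). The remaining 6 were eif4ebp3, cbs 100136726, MAP1LC3B 110511247, shmt2, Slc3a2 110533969 and nupr1b, at log2 fold changes of -1.69 to -0.51, each called in 1 or 2 of the 6 fits without 1 library. Other copies, CBS 110520495 and SLC3A2 110509955, were among the loci that rose, by 1.92 and 1.20 (edgeR adjusted p = 0.0133 and 0.0382). Both are also named after their values were seen. CBS lost its call without hypoxia replicate 3 (0.0575), and SLC3A2 kept its own without control replicate 1 alone (0.0709 to 0.141 in the other 5 fits). Dropping hypoxia replicate 1, 2 or 3 left 10, 14 and 6 rising loci, with 1, 1 and 2 falling. Dropping control replicate 1, 2 or 3 gave 24, 10 and 9 rising loci, with 10, 1 and 1 falling. Over all genes, 1130 rose and 1056 fell without control replicate 1. Without any 1 other library 229 to 305 rose and 127 to 230 fell.

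**Figure D5:**
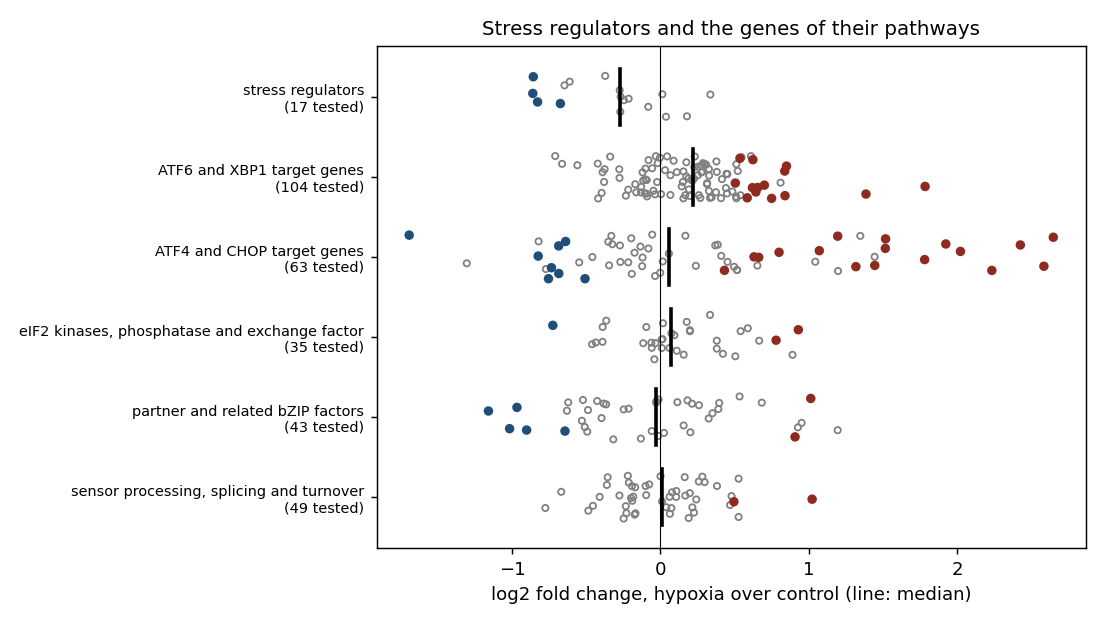
Log2 fold change (hypoxia over control) of the tested stress regulators and of 5 lists of genes in their pathways. Each point is a locus, filled where it passed an adjusted p of 0.05 (red higher, blue lower), and black lines are medians; the regulators have filled points below 0 alone, and the ATF6 and XBP1 targets above 0 alone.

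Of 35 tested loci of eIF2 control other than PERK, 2 rose, 1 fell and 32 did not pass, with a median log2 fold change of 0.07. The 5.71% higher and 2.86% lower were near the 3.83% and 3.39% of all genes tested. The beta subunit of eIF2, eif2s2 110493873, rose by 0.93 (SE 0.14, edgeR adjusted p = 0.00838), to 9.81 ± 1.14 FPKM in hypoxia, against 5.07 ± 0.711 FPKM in controls (SD, n = 3 each). The locus GCN1 110535056, for a protein that activates the amino acid sensing kinase GCN2, rose by 0.78 (edgeR adjusted p = 0.0171), and lost its call without hypoxia replicate 1 or 3 (0.0600 and 0.0624). The exchange factor subunit eif2b2 fell by 0.73 (edgeR adjusted p = 0.0388). Its adjusted p was 0.127, 0.0977 and 0.114 without hypoxia replicates 1, 2 and 3, and 0.134 and 0.127 without control replicates 2 and 3. Without control replicate 1 the list had 3 loci lower, without any 1 other library 0. It had 1, 2 and 1 higher without hypoxia replicates 1, 2 and 3 and 2 without each control. Of all genes, 1056 were lower and 1130 higher without control replicate 1. Without any 1 other library 127 to 230 were lower and 229 to 305 higher.

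The other eIF2 kinases, named after their values were seen, did not pass. GCN2 (EIF2AK4) averaged 2.33 ± 0.2495 FPKM in hypoxia and 2.39 ± 0.274 FPKM in controls, with a log2 fold change of -0.06. The heme-regulated kinase EIF2AK1 110502921 averaged 2.08 ± 0.357 FPKM in hypoxia and 2.07 ± 0.333 FPKM in controls, at -0.04. The kinase of double-stranded RNA, eif2ak2, averaged 1.65 ± 0.182 FPKM in hypoxia and 1.18 ± 0.0601 FPKM in controls (SD, n = 3 each), at 0.51 with an edgeR adjusted p of 0.121. Whether PERK differed from them was not tested. PPP1R15B, also named after its values were seen, is a partner of the phosphatase that removes the phosphate from eIF2. Its 3 loci, 2 of them described as uncharacterized, were at -0.46, 0.02 and 0.09, none past the threshold with all libraries. Without control replicate 1 the locus at -0.46 (110494057) passed at -0.66 (edgeR adjusted p = 0.0317).

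Among partner and related bZIP factors, which pair with ATF4, CHOP and ATF3 or resemble them, 2 of 43 tested loci rose, 5 fell and 36 did not pass, at a median log2 fold change of -0.03. The 4.65% higher was near the 3.83% of all genes tested, and 11.6% were lower, beside 3.39%. As with the other lists, earlier results of these data were known when it was chosen, so the shares are descriptive. NFE2L1, a bZIP factor held in the ER membrane, fell by 1.16 (SE 0.13, edgeR adjusted p = 0.00357), with 3.38 ± 0.144 FPKM in hypoxia and 7.45 ± 0.723 FPKM in controls (SD, n = 3 each). The AP-1 subunit c-Jun differed between copies. JUN 110530532 fell by 0.97 and Jun 110508530 by 0.90, while jun 100136112 rose by 0.91 (edgeR adjusted p = 0.00824, 0.0122 and 0.0131). In that order they averaged 5.81, 3.01 and 19.2 FPKM in hypoxia and 11.2, 5.58 and 10.1 FPKM in controls. The rising copy was thus the most abundant in hypoxia, and the sum of the copies was not tested. Jun 110508530 was at 0.0535 and 0.0524 without hypoxia replicates 1 and 3, and jun 100136112 at 0.0537 without hypoxia replicate 2. The other called loci are named after their values were seen. The locus creb3l3b 110524283 fell by 1.02, with 28.2 ± 0.661 FPKM in hypoxia and 55.8 ± 15.5 FPKM in controls (edgeR adjusted p = 0.0174). ATF7 110528172 fell by 0.64 and cebpd 100379114 rose by 1.01 (edgeR adjusted p = 0.0375 and 0.0420). Dropping hypoxia replicate 1, 2 or 3 left 1, 0 and 1 rising loci, with 2, 3 and 2 falling. Dropping control replicate 1, 2 or 3 gave 3, 1 and 2 rising loci, with 7, 3 and 3 falling. Over all genes, 1130 rose and 1056 fell without control replicate 1. Without any 1 other library 229 to 305 rose and 127 to 230 fell.

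In a list of factors that process, splice or turn over the sensors and their products, 2 of 49 tested loci rose and 0 fell with edgeR, at a median log2 fold change of 0.01. The 4.08% higher was near the 3.83% of all genes tested. At an unadjusted p under 0.05 edgeR had 5 higher and 5 lower, beside 4581 of all 19365 genes in either direction. DESeq2 and limma called 0 lower. RtcB, the RNA ligase that joins the cut xbp1 transcript in mammals, rose by 1.02 (SE 0.18, edgeR adjusted p = 0.0122). It had 4.98, 3.12 and 4.30 FPKM in hypoxia replicates 1 to 3, against 1.94, 1.87 and 2.16 FPKM in control replicates 1 to 3, with no overlap, and its adjusted p was 0.0590 without hypoxia replicate 1. The other, RPN2, is a subunit of the enzyme that adds sugar chains to new proteins and is neither a processing nor a splicing factor. It rose by 0.50 (edgeR adjusted p = 0.0467) and passed in none of the 6 fits without 1 library, where its adjusted p was 0.0666 to 0.155. The list had 0, 1 and 1 loci higher without hypoxia replicates 1, 2 and 3 and 1 without each control, and 2 and 1 lower without control replicates 1 and 2. Of all genes, 1130 were higher and 1056 lower without control replicate 1. Without any 1 other library 229 to 305 were higher and 127 to 230 lower.

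Of the 17 tested loci, hypoxia replicate 2 was the lowest hypoxia library at 10 and hypoxia replicate 3 the highest at 10. Among controls, replicate 1 was the lowest at 8 and replicate 3 the highest at 8, and these counts were not tested. At the 4 loci that fell, control replicate 1 was the lowest control for PERK and Atf6b, control replicate 2 for xbp1 and control replicate 3 for DDIT3.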

How the data were processed

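Flash-frozen liver gave total RNA by Trizol extraction, per the labels' protocols, and 3 hypoxia and 3 control RNA-seq libraries were analysed. The deposited table holds raw counts and FPKM for each gene, per the file headers, with the authors' log2 fold change, p-value and adjusted p-value. The submitters' processing notes list Bowtie2 2.2.8 and TopHat2 2.1.1 without a role. The counting tool, genome build and statistical test of the authors were not given in the sources used here. Small RNA libraries were not used here.

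Software was R 4.3.3, with edgeR (4.0.16) as the main tool and limma (3.58.1) and DESeq2 (1.42.0) as alternatives. Counts were scaled by TMM and fitted with group as the single term over 19365 genes, those averaging 0.5 FPKM or more across the 6 libraries. P-values were two-sided and adjusted by Benjamini-Hochberg over all these genes, with a threshold of 0.05. The SE is the absolute unshrunken log2 fold change over the square root of edgeR's F. Levels come from the deposited FPKM. The fits were tested on simulated data. Groups and replicate numbers come from the labels, and same-numbered libraries did not deviate together (correlations -0.0552, 0.0636 and -0.0543), so they were not treated as pairs. Replicates of each group varied beyond sampling noise (chi-square over degrees of freedom from 12.4 to 30.1).

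The members and gene lists were chosen with earlier results of these data known. All member loci were named, and of each list up to 4 genes past the threshold with the smallest adjusted p; other list genes are marked as named after their values were seen. The genes hspa5, herpud1 and dnajc3 stand in 2 lists each. The 2 locus ratios were chosen after values were seen, each setting a locus called lower against a locus of the same gene that was not. All 41896 rows with an NCBI number matched the gene table of USDA_OmykA_1.1, used here for the order of genes alone. Reads of near-identical copies may have been split between loci by the authors' counting, which makes values of single copies uncertain. Alternatives were DESeq2, upper-quartile scaling, no filter, a minimum of 1 FPKM, limma on log2(FPKM + 0.5) and log2(FPKM + 1), each library left out, the replicate number as a block, and summed loci.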

Additional observations from a re-analysis of the deposited data

How the results depend on the processing

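DESeq2, upper-quartile scaling, no filter and a minimum of 1 FPKM each called the 4 loci lower and no member higher. With limma on log2(FPKM + 0.5) and on log2(FPKM + 1), 0 and 0 members were lower: log2 fold changes were -0.75 and -0.74 for xbp1 110526029, -0.67 and -0.57 for eif2ak3, -0.61 and -0.58 for DDIT3 110527691 and -0.63 and -0.51 for Atf6b 110488334. The replicate block kept 3 of the 4 calls, and DDIT3 was at -0.67 (edgeR adjusted p = 0.0748). Under the block, eIF2 control genes had 0 lower and sensor processing genes 1 higher. With loci summed 2 members were lower, DDIT3 and eif2ak3, of which eif2ak3 has 1 locus and so was not changed by summing. In the same fit xbp1 and XBP1 came to -0.10, Atf6b to -0.48, atf4 to 0.0176 (both 110508391 and 110486127 are below 0 alone) and atf6 to -0.14. Leaving out 1 library, members lower ranged over 0 to 4, all genes lower over 127 to 1056 and higher over 229 to 1130. Over the same 6 fits the log2 fold change ranged over -0.99 to -0.53 for xbp1 110526029, -1.05 to -0.74 for eif2ak3, -0.81 to -0.48 for DDIT3 110527691 and -1.05 to -0.70 for Atf6b 110488334.

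The sign turned in these ranges over the fits without 1 library: -0.21 to 0.0529 for atf4 110486127, -0.0592 to 0.0712 for atf6 110524848, -0.13 to 0.17 for XBP1 MSTRG.12688, -0.0321 to 0.18 and -0.31 to 0.31 for PPP1R15B 110528365 and 110492175, -0.13 to 0.0584 for EIF2AK4, -0.13 to 0.0753 for EIF2AK1 110502921, -0.16 to 0.53 for hspa5 110523600 and -0.0665 to 0.21 for Dnajb9 110500011. EIF2AK1 also turned to 0.000297 with limma on log2(FPKM + 1). None of these passed the threshold in any of those fits.

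For the lists, the fits without 1 library gave 5 to 14 higher and 0 to 4 lower of the ATF6 and XBP1 targets, 6 to 24 higher and 1 to 10 lower of the ATF4 and CHOP targets, 1 to 2 higher and 0 to 3 lower of eIF2 control, 0 to 3 higher and 2 to 7 lower of the bZIP factors, and 0 to 1 higher and 0 to 2 lower of sensor processing. With both limma fits 317 and 323 of all genes were lower, 10 ATF4 and CHOP targets were higher and 5 lower, 1 eIF2 control gene was higher and 0 lower, and 1 bZIP factor and 1 sensor processing gene were higher. With no filter, sensor processing had 1 higher and 1 lower. The causes of these shifts were not tested. Small counts limit precision at the low loci, and 3 libraries a group limit it throughout.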
